A study of Mus musculus with 30 samples.

Results

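The comparison was between kidney organoids kept in culture for 21 days (21D organoids) and kidney organoids kept for 8 days (8D organoids), over all 23986 gene symbols of an Affymetrix Mouse Gene 2.0 ST expression table. It used 6 of the 30 arrays of the series, 3 of 21D organoids and 3 of 8D organoids, chosen by their sample labels. The series follows mouse embryonic stem cells (ESCs, line 1B10) through mesoderm and intermediate mesoderm to renal progenitors in monolayers and then into organoids. Undifferentiated ESCs and embryonic and adult mouse kidneys stand beside them, with 3 arrays in each of 10 groups. The embryonic kidneys form separate groups by embryonic day, and values given below for embryonic kidneys take these groups together. An array of the later embryonic day carries another batch label than the organoid arrays. To make organoids, renal progenitors were dissociated and a droplet of cells was left to aggregate on a porous filter at an air-liquid interface in serum medium with the ROCK inhibitor Y27632, then given the Wnt agonist CHIR99021 with Bmp7 for a day, then serum medium alone until harvest. Both groups therefore share the stem cell line, the progenitor protocol and the early growth factor pulse, carry no transgene that the labels name, and differ in the time spent in serum medium. The organoids come from a single stem cell line, and the labels do not say whether replicates are separate differentiations. The p-values of the gene tests therefore measure only the spread between arrays within groups, which may be technical, pooled over all 10 groups. That spread differed between groups. Genes with an SD over 1 within a group numbered 218 in 8D and 228 in 21D organoids. In mesoderm cells the number was 11 and in renal progenitors 575. Whole organoids were lysed, so a lower signal of a cell type's genes can mean fewer such cells or less RNA in each, and these cannot be told apart.

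A kidney forms from a branching ureteric bud, which becomes the collecting ducts, and from a mesenchyme of nephron progenitors, which condenses into vesicles and matures into podocytes, proximal tubules, loops of Henle and distal tubules, with stroma and vessels around them. Dividing progenitors express the genes of DNA replication and mitosis, which adult tubules at rest do not. Stem cell aggregates can also hold cells that follow other fates, among them neurons, muscle, liver-like or yolk sac endoderm and trophoblast, each of which has well-known marker genes.

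Levels are given on the log2 scale of robust multi-array averaging (RMA), on which a difference of 1 is a doubling. Olfactory and vomeronasal receptor genes, which are not expected to be active in kidney, serve as a gauge of background: over the 6 arrays, the 95th percentile of the mean level of 1399 such genes was 5.06. Array medians ran between 5.91 and 5.94 in the 21D organoids and between 5.82 and 5.89 in the 8D organoids. The arrays of a group correlated with each other at 0.973 to 0.981 in the 21D organoids and at 0.977 to 0.981 in the 8D organoids. The least alike pair was 21D replicate 2 and 8D replicate 1, at a correlation of 0.942, and leaving out either of these 2 arrays lowered many of the counts below. All 6 arrays carry the same batch label.

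The question was whether longer culture changed gene expression in the organoids, and in which direction. In the fit across all 30 arrays (limma, with a term for batch), 1427 genes rose and 1328 fell in 21D organoids relative to 8D organoids at a Benjamini-Hochberg adjusted p under 0.05, which is 5.95% and 5.54% of the genes tested and 11.5% together. The rising genes had a median log2 fold change of 1.01, and 723 of them at least doubled. The falling genes had a median of 0.63 in size, and 126 of them at least halved. At a shift of at least 4-fold, 126 genes rose and 4 fell. In 1318 of the rising and 1260 of the falling genes the 3 arrays of each group did not overlap. Of all genes, 11.5% were higher in 21D organoids without overlap and 14.9% were lower. The calls come from the same arrays, so these counts are no separate support for them. Without 8D replicate 1 the counts were 695 that rose and 477 that fell, and without 21D replicate 2 they were 904 and 534. Centring every array on its median gave 1201 that rose and 2135 that fell, so the share of rising genes among those called was 51.8% as deposited and 36.0% after centring.

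The 15 largest increases among named protein-coding and long RNA genes whose arrays did not overlap were Alb, Cym, Cdr1, Lilrb4a, Afp, Myh3, Gpm6a, Syt4, Dcx, Celf4, Bpifb1, Scg3, Copg2os2, Rmst and Gria2. They hold neuronal genes (Gpm6a, Syt4, Dcx, Celf4, Scg3, Gria2), genes of liver and yolk sac (Alb, Afp), a myeloid receptor (Lilrb4a) and an embryonic muscle myosin (Myh3). The 15 largest decreases were Hand1, Phlda2, Dnmt3b, Zscan10, EU599041, Mup6, Lin28a, Lrrc31, Tmem88, Rbpms2, Trim6, Dhdh, Sall4, Map7d3 and Stard8. Of these decreases, Dnmt3b, EU599041, Lrrc31, Tmem88, Rbpms2, Trim6, Dhdh and Sall4 were not called without 8D replicate 1, and all but Tmem88 of them were not called without 21D replicate 2. Among the 15, Dnmt3b, Zscan10, Lin28a and Sall4 are known from pluripotent and early embryonic cells, and Hand1 from trophoblast and early mesoderm.

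**Figure D1:**
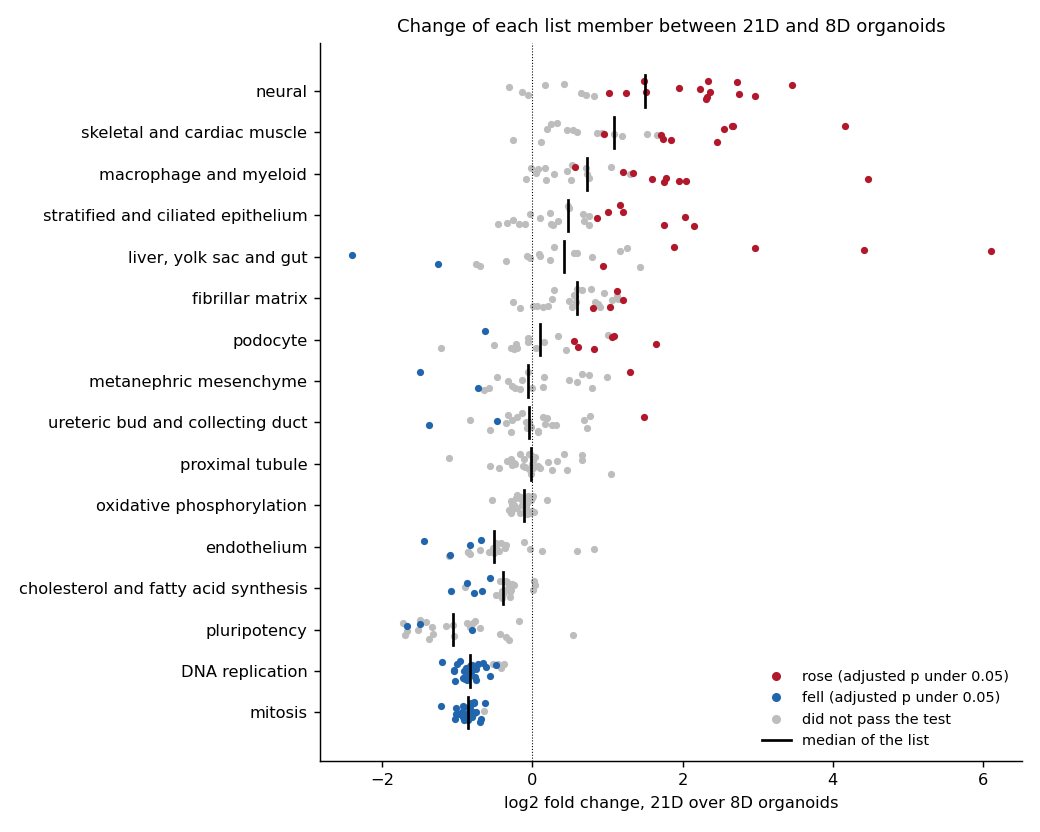
Log2 fold change of each measured member of 16 gene lists, 21D over 8D organoids, from the fit across all arrays. Red points rose and blue points fell at an adjusted p under 0.05, grey points did not pass, and the black bar is the median of the list. The neural list has a median of 1.498 and 14 red points, and every member of the DNA replication and mitosis lists lies left of 0.

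Neuronal genes rose together. Of 22 measured members of the neural list, 14 rose and 0 fell, beside 5.95% of all genes that rose, with a median log2 fold change of 1.498 beside -0.04 over all genes. Without each of the 6 arrays in turn, 10 to 14 members rose. The mean level of the whole list was 8.36, 7.65 and 7.77 in the 21D organoids, against 6.12, 6.81 and 6.35 in the 8D organoids. It was 8.18, 7.31 and 7.37 in the 14D organoids, and 5.02 to 5.07 in adult kidneys.

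Dcx, a microtubule-binding protein of young migrating neurons, had levels of 10.15, 9.31 and 9.35 in 21D organoids, against 5.13, 7.28 and 6.02 in 8D organoids. The groups did not overlap, and the log2 fold change was 3.46 ± 0.45 (SE, limma adjusted p = 3.22e-05). Tubb3, the neuronal beta-tubulin, averaged 10.42 ± 0.55 in 21D organoids and 7.67 ± 1.01 in 8D organoids (SD, n = 3 each; limma adjusted p = 0.000417). The dendritic protein Map2 had levels of 10.32, 9.78 and 9.44 in 21D organoids, against 6.58, 7.87 and 6.93 in 8D organoids (limma adjusted p = 6.69e-06). In all 3 genes, 8D replicate 2 was the highest of its group and 21D replicate 1 the highest of its own. Neurod1, a transcription factor of neuronal commitment, rose by 1.02 on the log2 scale, whereas Sox2, a factor of neural and pluripotent cells that averaged 10.84 in ESCs, had means of 9.87 in 21D organoids and 10.17 in 8D organoids and did not pass. Of the glial factors, Olig2 rose by 1.24, while Sox10 had a log2 fold change of -0.05 and did not pass the test.

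The machinery of nerve cell signalling was described through families taken by gene symbol after the values had been seen. Of 16 ionotropic glutamate receptor genes, 9 rose and 0 fell, led by Gria2, an AMPA receptor subunit, with levels of 9.60, 8.44 and 8.32 in 21D organoids and 5.37, 6.39 and 5.26 in 8D organoids. Of 19 GABA-A receptor subunits, 5 rose and 0 fell. Among genes with ion channel symbols, 13 of 26 voltage-gated calcium, 17 of 93 potassium (with their Kcnip partners) and 4 of 14 sodium channel genes rose. In the same families 1, 0 and 1 fell. The rising genes with calcium channel symbols include Cacng1, Cacng2, Cacng3 and Cacng4. Of these, Cacng1 was highest in 21D replicate 2, with levels of 5.33, 6.71 and 5.47 in 21D organoids and 5.24, 4.94 and 4.76 in 8D organoids. Without 21D replicate 1 the rising GABA-A, calcium and potassium genes numbered 2, 8 and 11, and without 8D replicate 1 they numbered 3, 8 and 11. Scn2a, a neuronal sodium channel, averaged 7.29 ± 0.38 in 21D organoids and 4.54 ± 0.30 in 8D organoids (SD, n = 3 each), so that the 8D level lay below the background gauge of 5.06.

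The genes that set a transmitter type did not move as a block. Slc17a6, which loads glutamate into vesicles, had levels of 8.17, 7.84 and 7.05 in 21D organoids, against 4.43, 5.44 and 4.34 in 8D organoids (log2 fold change 2.95 ± 0.31 SE, limma adjusted p = 6.51e-06). Its relative Slc17a7 stayed under the background gauge in both groups, with a mean of 4.52 in 21D organoids and 4.56 in 8D organoids. On the inhibitory side, the GABA-making enzyme Gad2 rose by 1.11 on the log2 scale, and Gad1 had a log2 fold change of 0.42 with a limma adjusted p of 0.29. The call for Gad2 was lost without any of 4 of the 6 arrays (8D replicates 1, 2 and 3 and 21D replicate 1). Neuronal subtype factors that rose were Lhx5 by 1.78, Neurod6 by 1.66 and Pou4f1 by 1.00, the last of which was lost without 8D replicate 1, 8D replicate 3 or 21D replicate 1.

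Adhesion, splicing and transport genes of neurons rose as well. All 10 measured neurexin, neuroligin and Lrrtm genes, which build the contacts across synapses, had log2 fold changes above 0, and 7 rose. Of 23 clustered protocadherin genes 16 rose. All but Pcdhga10 of the 23 measured genes are from the beta cluster, as were the 16, and in this cluster neighbouring genes are near-identical in parts and probes can share signal. Without 21D replicate 2, 9 rose. Of 14 neuronal RNA-binding protein genes of the Elavl, Rbfox, Celf and Nova families 11 rose, with Celf4 at 9.77, 8.58 and 8.23 in 21D organoids and 5.36, 5.99 and 5.27 in 8D organoids. Of 37 kinesins, 7 rose (18.9%) and 12 fell (32.4%), beside 5.95% and 5.54% of all genes. The 7 that rose were Kif5c, Kif5a, Kif1a, Kif1b, Kif3c, Kif3a and Kif21b, which carry cargo along axons or in cilia, and the 12 that fell included Kif11, Kif18a, Kif20a, Kif23 and Kif2c, which act in mitosis. Without 21D replicate 1, 3 kinesins rose, and without 8D replicate 2 it was 4.

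**Figure D2:**
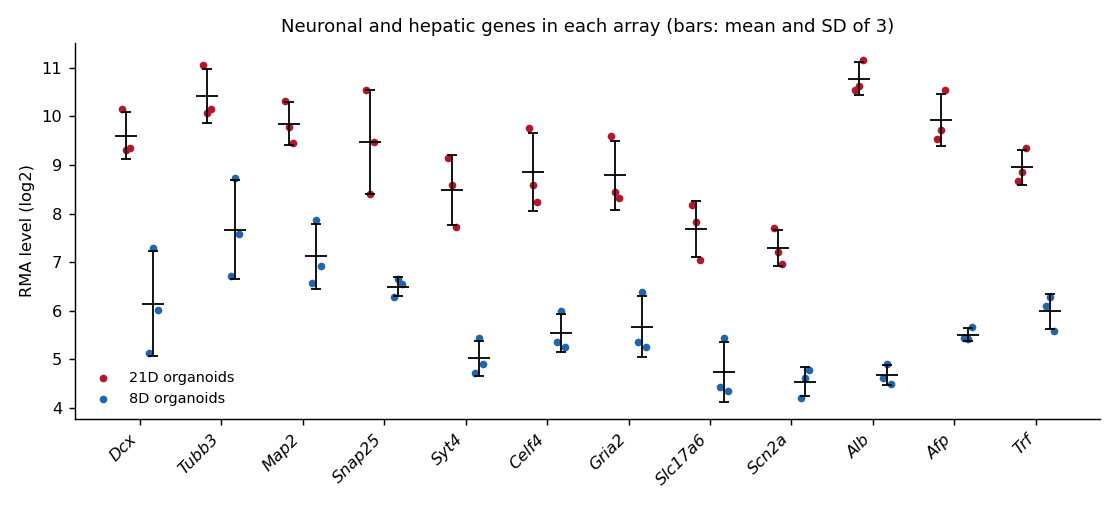
RMA level (log2) of 9 neuronal genes and of Alb, Afp and Trf in each of the 3 21D arrays (red) and 3 8D arrays (blue), with black bars for the mean and SD. In each gene shown, all 3 21D arrays lie above all 3 8D arrays.

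MicroRNA genes of the nervous system were among those that rose. The table holds 509 microRNA genes, of which 11 rose and 9 fell, lower shares than the 5.95% and 5.54% of all genes. The probes read the hairpin or its precursor and cannot tell the mature arms apart, and many microRNA genes lie near background. The loci named here were chosen after their values were seen. Mir9-2, of the neural miR-9 family, had levels of 7.58, 6.57 and 6.52 in 21D organoids, against 2.48, 4.95 and 2.67 in 8D organoids (log2 fold change 3.53 ± 0.66 SE, limma adjusted p = 0.00118). Mir9-1 and Mir9-3, the other loci that make the same mature RNA, rose by 1.12 and 0.54 on the log2 scale, with limma adjusted p = 0.0414 and 0.0425. The call for Mir9-1 was lost without any of 8D replicates 1, 2 and 3 and 21D replicate 1, and that for Mir9-3 was lost without any array except 8D replicate 2. The host transcripts of miR-124, Mir124-2hg and Mir124a-1hg, rose by 1.80 and 1.69. Beside them stood Mirlet7c-1 and Mir99a, neighbours on chromosome 16, with log2 fold changes of 1.57 and 1.56, and Mir125b-1 with 1.36. The call for Mirlet7c-1 was lost without 8D replicate 1 or 21D replicate 1, and that for Mir125b-1 without any array except 21D replicate 3. The mature sequences are shown because the seed, bases 2 to 8, decides which messages a microRNA pairs with. Of the 509 genes 440 were matched to RefSeq by name. The sequences are from RefSeq on GRCm38.p6, with the seed in capitals, and no seed is shared among the different names. The loci are chr13:83738821-83738843 for miR-9-5p of Mir9-2, chr16:77599672-77599693 for let-7c-5p, chr16:77598940-77598961 for miR-99a-5p and chr9:41581940-41581961 for miR-125b-5p, all on the plus strand.
mmu-miR-9-5p: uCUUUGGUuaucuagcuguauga
mmu-let-7c-5p: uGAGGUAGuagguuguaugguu
mmu-miR-99a-5p: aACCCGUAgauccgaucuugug
mmu-miR-125b-5p: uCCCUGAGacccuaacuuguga

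The microRNA genes that fell included ones known from embryonic stem cells and dividing cells. Mir290a, of a cluster typical of mouse ESCs, had levels of 6.55, 4.62 and 4.42 in 21D organoids, against 7.66, 7.41 and 6.76 in 8D organoids (limma adjusted p = 0.0345), and averaged 9.17 in the ESC arrays. Mir18b and Mir363, of the miR-106a to miR-363 cluster on the X chromosome, fell by 1.61 and 1.39 on the log2 scale. Without 8D replicate 1 or 21D replicate 2 none of these 3 calls remained, and those for Mir290a and Mir363 were also lost without 21D replicate 3, as was that for Mir290a without 8D replicate 2. Their loci are chr7:3218639-3218660 on the plus strand for miR-290a-5p, and chrX:52742381-52742403 and chrX:52741697-52741718 on the minus strand for miR-18b-5p and miR-363-3p. The 6 further microRNA genes that fell were Mir3058, Mir107, Mir3105, Mir1192, Mir717 and Mir344e, and the 5 further that rose were Mir135a-2, Mir384, Mir218-1, Mir690 and Mir1963. Among these further genes, Mir3105, Mir1192, Mir344e, Mir135a-2, Mir384 and Mir690 averaged under the background gauge in both groups.
mmu-miR-290a-5p: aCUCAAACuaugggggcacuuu
mmu-miR-18b-5p: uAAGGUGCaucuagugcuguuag
mmu-miR-363-3p: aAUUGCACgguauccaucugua

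Genes of the liver and yolk sac rose, with albumin in the lead. Alb, serum albumin, had levels of 10.55, 10.62 and 11.16 in 21D organoids, against 4.63, 4.90 and 4.50 in 8D organoids, a log2 fold change of 6.10 ± 0.90 (SE, limma adjusted p = 0.000145). This was the largest change in the table, and the 3 8D arrays lay under the background gauge. Afp, alpha-fetoprotein, had levels of 9.53, 9.72 and 10.53 in 21D organoids and 5.45, 5.41 and 5.66 in 8D organoids. The iron carrier Trf, at 8.66, 8.85 and 9.35 in 21D organoids and 6.09, 6.29 and 5.59 in 8D organoids, and the plasma glycoprotein Ahsg, with a log2 fold change of 3.07, rose too. Of 22 measured genes of the liver, yolk sac and gut list, 5 rose (22.7%) and 2 fell (9.1%), beside 5.95% and 5.54% of all genes. Those that rose were Alb, Afp, Trf, Fgg and Fga. Their count was 4 without 8D replicate 1, where Fgg was not called, and also 4 without 8D replicate 3, 21D replicate 2 or 21D replicate 3. The 2 that fell were Spink1, a secreted protease inhibitor, and Cdx2, a gut and trophoblast factor. Neither of these 2 calls remained without 8D replicate 1, 8D replicate 3, 21D replicate 1 or 21D replicate 2. Foxa2, Ttr and Apoa1, further endoderm genes of the list, had log2 fold changes of 0.24, 1.26 and 0.60 and did not pass the test.

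The timing is given by the 14D organoids, fitted in the same model and set side by side, since the contrasts share arrays. For the neuronal Dcx the mean level was 6.15 in 8D, 9.09 in 14D and 9.60 in 21D organoids, and for Map2 it was 7.13, 9.40 and 9.85. For Trf the means were 5.99, 6.46 and 8.95, for Ahsg 4.89, 5.65 and 7.96 and for Alb 4.68, 6.94 and 10.78. Between 14D and 8D organoids 390 genes rose and 106 fell (1.63% and 0.442% of those tested), among them 9 of the 22 neural genes. Between 21D and 14D organoids 24 genes rose and 1 fell (0.1% and 0.00417%). No neural list gene was among these 24, which included the plasma protein genes Trf, Ahsg, Plg, Kng1, Itih4 and Pzp, the glycolytic enzyme Pklr, and the mucosal genes Bpifb1, Lypd8, Muc1, Agr2, Cdh17 and Pgc. Bpifb1, a secreted protein of airway and other mucosae, had levels of 6.99, 9.23 and 11.12 in 21D organoids, against 6.72, 5.45 and 5.24 in 8D organoids, with a mean of 5.37 at 14D.

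Muscle and macrophage genes rose on average but unevenly between organoid arrays. Of 23 skeletal and cardiac muscle genes 9 rose (39.1%) and 0 fell, beside 5.95% and 5.54% of all genes. The mean level of the list was 5.86, 8.28 and 6.81 in the 21D organoids, against 5.67, 5.62 and 5.72 in the 8D organoids. Myh3, the embryonic skeletal myosin, had levels of 5.53, 10.25 and 7.96 in 21D organoids and 3.85, 3.98 and 3.45 in 8D organoids, and the myoblast fusion gene Mymk had 6.20, 9.72 and 7.34 in 21D organoids and 5.18, 5.11 and 4.96 in 8D organoids. In both, 21D replicate 2 was highest by far. Without 21D replicate 2, 3 muscle genes rose, without 8D replicate 1 it was 4, and without 21D replicate 1 it was 15. Without 8D replicate 2 or 8D replicate 3 it was 6 each. Of 20 smooth muscle and myofibroblast genes 5 rose, among them Actg2 at 6.75, 7.20 and 6.15 in 21D organoids and 5.24, 4.91 and 4.87 in 8D organoids. Acta2, the alpha-actin of myofibroblasts, averaged 11.37 ± 0.46 in 21D organoids and 10.38 ± 0.62 in 8D organoids and did not pass the test (SD, n = 3 each; limma adjusted p = 0.113). Without 21D replicate 2, and likewise without 8D replicate 1, 2 smooth muscle genes rose.

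Of 24 macrophage and myeloid genes 9 rose (37.5%) and 0 fell, beside 5.95% and 5.54% of all genes. The list mean was 5.53, 6.95 and 6.02 in the 21D organoids, against 5.21, 5.22 and 5.13 in the 8D organoids. The inhibitory receptor Lilrb4a led with levels of 7.90, 10.46 and 8.95 in 21D organoids and 3.999, 4.31 and 5.60 in 8D organoids, followed by C1qb, a complement subunit made by macrophages, with a log2 fold change of 2.04. The receptor Csf1r, on which macrophages depend, had levels of 5.90, 7.36 and 5.96 in 21D organoids and 5.35, 5.34 and 4.92 in 8D organoids (limma adjusted p = 0.0167). Ptprc, the pan-leukocyte antigen, had 3.804, 5.65 and 3.89 in 21D organoids and 3.30, 3.32 and 3.56 in 8D organoids, mostly under the background gauge, and did not pass. Without 21D replicate 2, 1 macrophage gene rose, without 8D replicate 1 it was 3, and without 8D replicate 3 it was 5.

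On the list of stratified and ciliated epithelium, which includes the urothelium that lines the bladder and ureter, 7 of 24 genes rose (29.2%). Over all genes the share was 5.95%. The 7 were Upk1b, Krt4, Krt15, Trp63, Upk1a, Upk3b and Krt17. Upk1b, a plaque protein of the urothelial surface, had levels of 6.72, 8.82 and 8.52 in 21D organoids, against 5.38, 6.51 and 5.71 in 8D organoids (limma adjusted p = 0.0033). For the oesophageal and urothelial keratin Krt4 the groups overlapped, with 7.12, 8.81 and 8.11 in 21D organoids and 5.25, 7.58 and 5.09 in 8D organoids. The ciliary genes of the list, Foxj1, Dnah5, Tekt1 and Rsph1, had log2 fold changes of 0.28, 0.25, -0.46 and -0.26 and did not pass. The count that rose was 1 without 8D replicate 1 and 2 without 21D replicate 2.

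Fibrillar and basement membrane genes were counted separately. Of 27 fibrillar matrix genes 25 had a log2 fold change above 0, with a median of 0.59. Of the 27, 4 rose (14.8%), Thbs1, Col6a1, Col6a2 and Mfap5, beside 5.95% of all genes. None of the list did without 21D replicate 2 or without 8D replicate 1, 1 without 21D replicate 3 and 2 without 8D replicate 3. By contrast 10 did without 8D replicate 2 and 7 without 21D replicate 1. The list mean was 7.72 in 8D replicate 1, below 8.85 and 8.66 in 8D replicates 2 and 3, and 8.51, 9.30 and 9.25 in the 21D organoids. The fibroblast gene Dpt, a dermal matrix protein, rose, with levels of 7.10, 9.16 and 8.59 in 21D organoids and 5.07, 5.14 and 5.82 in 8D organoids (limma adjusted p = 0.000273). Of 19 basement membrane genes 2 rose (10.5%) and 0 fell, beside 5.95% and 5.54% of all genes. The median log2 fold change of this list was 0.001, and 0 of its genes rose without 21D replicate 2, 21D replicate 3 or 8D replicate 1. No member of the cartilage and bone list or of the matrix protease list passed the test.

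A placental signal separated single arrays within each age and not the ages from each other. In a principal component analysis of the 9 organoid arrays, the leading component, with 38.6% of the variance, placed the 8D arrays lowest (-57.92, -32.19 and -29.59), the 14D arrays between (2.45, 6.24 and 22.52) and the 21D arrays mostly highest (24.6, 45.27 and 18.62). The next component, with 20% of the variance, was highest in 21D replicate 1 (36.57), 14D replicate 1 (30.28) and 8D replicate 2 (18.54). The mean level of 22 placental prolactin genes, hormones of trophoblast giant cells, was 4.89 in 21D replicate 1 against 3.27 and 3.18 in the other 21D arrays, and 4.79 in 8D replicate 2 against 3.18 and 3.39 in the other 8D arrays. Prl3d1, placental lactogen, had levels of 10.18, 4.58 and 3.70 in 21D organoids, against 4.57, 9.62 and 4.92 in 8D organoids. A set of 16 trophoblast cathepsin, serpin and Tpbp genes followed the same arrays, with 4.93, 3.70 and 3.36 in the 21D organoids and 3.53, 4.96 and 3.39 in the 8D organoids. Both families were taken by symbol after the values were seen, and none of their 38 genes passed the 21D against 8D test.

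Primitive red cell genes split the 8D arrays the other way. Hbb-bh1, an embryonic globin, had levels of 3.55, 4.86 and 6.97 in 21D organoids, against 9.87, 3.79 and 8.82 in 8D organoids. All 13 measured erythroid genes had a log2 fold change below 0 and none passed the test. The part that these other cell types had in the remaining comparisons was not tested.

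**Figure D3:**
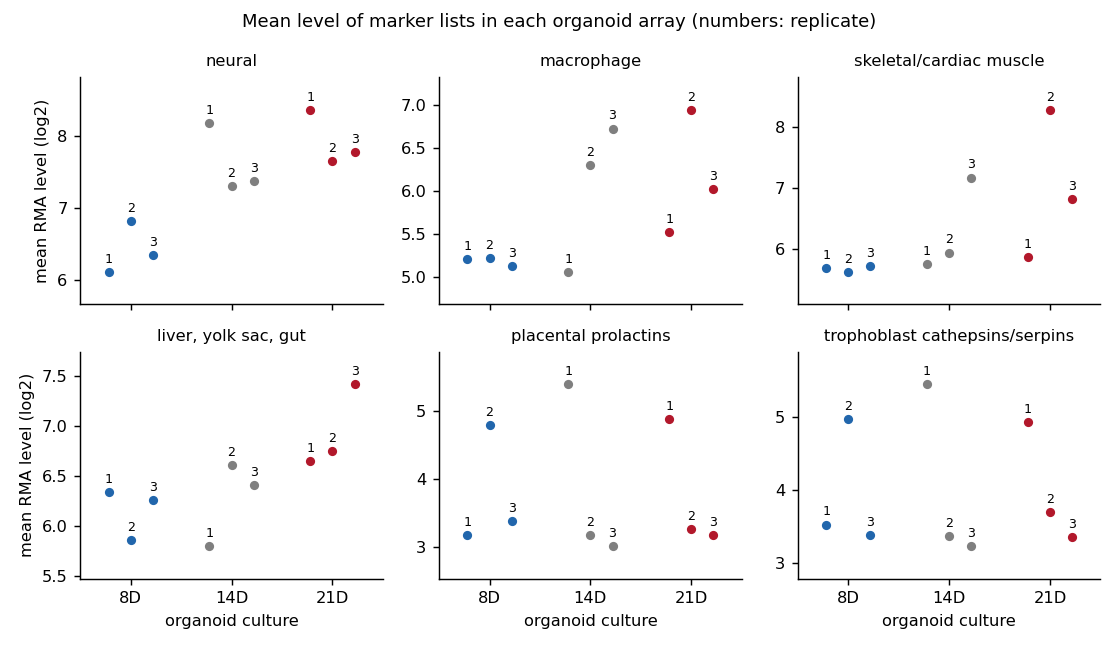
Mean RMA level (log2) of 6 gene sets in each organoid array, by days of culture, with the replicate number above each point. The neural set is low in all 8D arrays, muscle is highest in 21D replicate 2 (8.28), and the 2 trophoblast sets are high in 8D replicate 2, 14D replicate 1 and 21D replicate 1 alone.

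Genes of the dividing cell fell together. Of 30 DNA replication genes 26 fell and 0 rose, beside 5.54% of all genes that fell, and of 29 mitosis genes 28 fell and 0 rose. All 59 had a log2 fold change below 0, with medians of -0.83 and -0.85. The fall was even across members, from -1.20 to -0.37 in the replication list and from -1.21 to -0.62 in the mitosis list, and 4 genes of each list at least halved. After median centring 27 and 28 fell. Without each array in turn, 22 to 26 replication genes fell. For mitosis it gave 14 without 8D replicate 1, 16 without 21D replicate 2, 18 without 21D replicate 1 and 23 to 27 without each of the other arrays.

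The replication genes cover the whole fork. Mcm10, which starts the replicative helicase, had levels of 7.50, 7.004 and 7.56 in 21D organoids, against 8.88, 8.42 and 8.36 in 8D organoids (log2 fold change -1.20 ± 0.20 SE, limma adjusted p = 0.000436). The helicase subunit Mcm3 had levels of 9.41, 9.11 and 9.20 in 21D organoids and 10.36, 10.23 and 10.25 in 8D organoids. Polymerases, clamp and nucleotide supply followed, with Pole at -0.996, Pold1 at -0.92, Pcna at -0.56, Rrm2 at -0.86 and Tyms at -0.80 on the log2 scale. Among mitosis genes, the checkpoint kinase Bub1 led with levels of 8.06, 7.90 and 8.44 in 21D organoids and 9.63, 9.16 and 9.24 in 8D organoids (limma adjusted p = 0.00436). Cdk1, the kinase that drives entry into mitosis, had 8.24, 8.18 and 8.72 in 21D organoids and 9.32, 9.05 and 9.14 in 8D organoids. The groups did not overlap in any of these 4 genes.

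The level reached at 21 days was still well above that of adult kidney. The mean of the mitosis list was 8.48, 8.48 and 8.91 in 21D organoids, against 9.60, 9.35 and 9.49 in 8D organoids. It was 9.05, 9.06 and 8.998 in 14D organoids, 9.37 to 9.51 in embryonic kidneys and 5.10 to 5.34 in adult kidneys. Genes that halt the cycle did not show the opposite movement as a set. Of 18 genes of the p53 and arrest list, 13 had a log2 fold change below 0, with a median of -0.13. In that list 1 gene rose (5.6%) and 0 fell, beside 5.95% and 5.54% of all genes. That gene was the Cdk inhibitor Cdkn1b, with 8.74, 8.66 and 8.77 in 21D organoids and 8.198, 8.24 and 8.47 in 8D organoids, a call lost without 8D replicate 1.

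**Figure D4:**
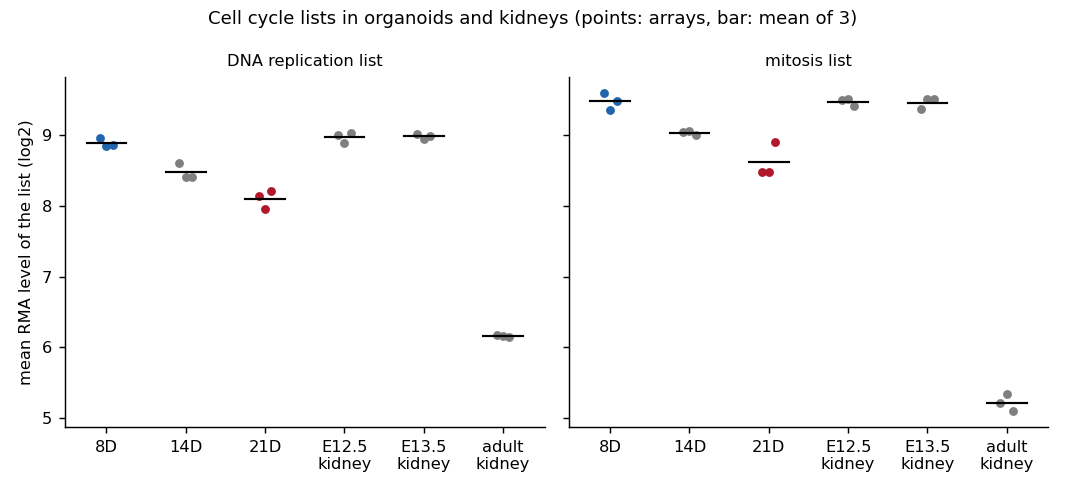
Mean RMA level (log2) of the DNA replication and mitosis lists in each array of 8D (blue), 14D (grey) and 21D (red) organoids and of embryonic and adult kidneys (grey), with a bar at the mean of 3. The 21D organoids lie below the 8D organoids in both lists and far above adult kidneys.

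Promoters of the falling mitosis and replication genes were searched for short motifs. CCAAT is the box bound by NF-Y, and TTTGAA is the core of the cell cycle homology element, through which many mitotic genes are kept silent outside division. Both were searched on either strand in windows of 300 bases, 250 before to 50 after each start, of RefSeq promoters on GRCm38.p6, counting overlapping matches, and a gene with several starts was counted if any window matched. Of the 24 falling mitosis genes with a promoter in the tables, 19 held CCAAT (79.2%), 18 held TTTGAA (75.0%) and 16 held both (66.7%), beside 41.6%, 17.9% and 7.2% of all 17642 genes of the array with a promoter. Of the 22 falling replication genes with a promoter, 13 held CCAAT (59.1%), 3 held TTTGAA (13.6%) and 2 held both (9.1%), so that TTTGAA was not more frequent there than over all genes. Over all 25 mitosis genes with a promoter, fallen or not, 80.0% held CCAAT, 76.0% TTTGAA and 68.0% both. Nearly all of that list fell, so these shares describe the list and cannot be tied to the fall. Hypoxia and interferon elements, also counted, were in 70.8% and 4.2% of the 24 falling mitosis genes, beside 52.9% and 4.0% of all genes. The motif counts are descriptions of letters in a window and not of bound sites.

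Promoters are printed for 3 mitosis genes with both motifs and for Mcm10, a replication gene with CCAAT alone, with each match on either strand in capitals. They are chr9:70421505-70421804 for cyclin B2 (Ccnb2), chr10:69352863-69353162 for Cdk1 and chr2:5012742-5013041 for Mcm10 on the minus strand, and chr7:122159185-122159484 for the kinase Plk1 on the plus strand. Ccnb2 holds 3 CCAAT and 2 TTTGAA matches, Cdk1 also 3 and 2, Plk1 1 of each, and Mcm10 3 CCAAT matches. Over the same genes the log2 fold changes were -0.91, -0.79, -0.91 and -1.20.
Ccnb2: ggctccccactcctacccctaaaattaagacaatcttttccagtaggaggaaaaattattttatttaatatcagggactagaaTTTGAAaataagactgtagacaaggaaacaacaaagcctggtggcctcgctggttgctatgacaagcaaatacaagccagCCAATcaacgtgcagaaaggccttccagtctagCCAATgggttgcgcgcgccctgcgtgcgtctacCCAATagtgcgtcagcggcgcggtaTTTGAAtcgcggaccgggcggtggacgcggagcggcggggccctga
Cdk1: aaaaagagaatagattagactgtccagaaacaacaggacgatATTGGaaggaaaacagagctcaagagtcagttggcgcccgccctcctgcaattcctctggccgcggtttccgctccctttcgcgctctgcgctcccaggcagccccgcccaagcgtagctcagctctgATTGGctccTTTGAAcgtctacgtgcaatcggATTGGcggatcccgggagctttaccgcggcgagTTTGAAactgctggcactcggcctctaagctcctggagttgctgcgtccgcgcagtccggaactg
Plk1: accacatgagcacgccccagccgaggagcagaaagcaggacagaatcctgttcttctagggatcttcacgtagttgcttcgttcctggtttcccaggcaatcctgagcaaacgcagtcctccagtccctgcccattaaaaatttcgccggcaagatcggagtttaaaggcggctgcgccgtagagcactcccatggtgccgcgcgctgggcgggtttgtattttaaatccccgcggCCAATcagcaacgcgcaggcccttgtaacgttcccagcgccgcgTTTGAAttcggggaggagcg
Mcm10: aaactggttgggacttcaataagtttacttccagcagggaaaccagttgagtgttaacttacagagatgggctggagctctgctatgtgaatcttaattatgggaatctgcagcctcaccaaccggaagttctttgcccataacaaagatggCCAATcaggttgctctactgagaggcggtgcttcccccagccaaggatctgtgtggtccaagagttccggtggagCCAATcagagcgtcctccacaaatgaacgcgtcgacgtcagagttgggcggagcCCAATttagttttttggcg

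Many rRNA processing genes fell. Of 36 rRNA processing genes with Utp, Rrp, Nop or Nol symbols, taken after the values were seen, 21 fell, with a median log2 fold change of -0.46, and 1 rose, Nol4, which carries a nucleolar symbol but is known from neurons. Utp20, of the small subunit processome, had levels of 7.97, 7.82 and 8.27 in 21D organoids, against 8.96, 8.94 and 8.75 in 8D organoids (limma adjusted p = 0.000286). Of 5 RNA polymerase I subunits 3 fell, led by Polr1b by 0.77. Without 8D replicate 1 or without 21D replicate 2 the count of falling rRNA processing genes was 7. Of 79 genes with ribosomal protein symbols 5 fell, a share near the 5.54% of all genes, and 77 had a log2 fold change below 0, with a median of -0.30, and many of these genes have near-identical copies that probes can share. After median centring 16 fell, beside 2135 of all 23986 genes, and without 21D replicate 2 or 8D replicate 1 it was 0 and 1. Without 8D replicate 2, 8D replicate 3 or 21D replicate 3 it was 3 each.

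Few pluripotency genes passed the test, though nearly all had lower levels. Of 25 pluripotency genes 24 had a log2 fold change below 0, with a median of -1.06, and 3 fell: Lin28a, Sall4 and Pou5f1. Lin28a, which blocks let-7 maturation, had levels of 7.40, 6.37 and 6.72 in 21D organoids, against 8.68, 8.14 and 8.67 in 8D organoids (limma adjusted p = 0.000986). Trim71, a let-7 target of stem cells, fell by 1.44. Nanog had levels of 10.06, 8.32 and 9.32 in 21D organoids and 10.90, 11.05 and 9.69 in 8D organoids and did not pass (limma adjusted p = 0.22), and averaged 4.61 in embryonic kidneys. Zfp42, another stem cell factor, had 9.04, 6.60 and 8.84 in 21D organoids and 9.97, 10.40 and 8.10 in 8D organoids. In both genes 21D replicate 2 was the lowest of its group, and the groups overlapped. Without 8D replicate 3, 12 pluripotency genes fell, without 21D replicate 1 it was 8, without 21D replicate 3 it was 2, and without 8D replicate 1 or 21D replicate 2 it was 1.

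The largest single decreases were Hand1 and Phlda2. Hand1, a factor of trophoblast, heart and extraembryonic mesoderm, had levels of 6.46, 5.45 and 6.56 in 21D organoids, against 9.61, 7.26 and 9.75 in 8D organoids (log2 fold change -2.72 ± 0.47 SE, limma adjusted p = 0.000581). The imprinted growth suppressor Phlda2 had 5.66, 4.75 and 5.91 in 21D organoids and 8.89, 7.09 and 8.40 in 8D organoids. In both, 8D replicate 2 lay between the groups' other arrays. Etv5, an Fgf-responsive factor of ureteric bud tips and stem cells, had 8.10, 7.85 and 7.75 in 21D organoids, against 9.48, 9.44 and 8.91 in 8D organoids (limma adjusted p = 2.26e-05), and Foxh1, a Nodal pathway factor, fell by 1.38. Tcf7, a Wnt target, fell by 1.15, while Apcdd1, a Wnt inhibitor, rose by 1.16. Over the 28 Wnt and BMP feedback genes, 4 rose (14.3%) and 2 fell (7.1%), beside 5.95% and 5.54% of all genes. Of the 28, 1 rose without 21D replicate 2 or 8D replicate 1. The count that fell was 5 without 8D replicate 2 and 1 without 21D replicate 1, 21D replicate 2 or 8D replicate 3.

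Endothelial genes leaned lower. Of 23 genes 20 had a log2 fold change below 0 and 4 fell (17.4%), Tek, Eng, Flt4 and Egfl7, beside 5.54% of all genes. The endothelial count that fell was 0 without 8D replicate 1, 8D replicate 3 or 21D replicate 1 and 2 without 21D replicate 2. The angiopoietin receptor Tek had levels of 5.27, 6.07 and 6.01 in 21D organoids, against 7.49, 5.97 and 8.19 in 8D organoids, with 8D replicate 2 among the 21D arrays. Pecam1 averaged 8.07 ± 0.24 in 21D organoids and 8.92 ± 0.27 in 8D organoids (SD, n = 3 each) and did not pass (limma adjusted p = 0.0871). Of 25 cholesterol and fatty acid synthesis genes 5 fell and 0 rose. Without 8D replicate 1 or 21D replicate 2, 3 fell. After median centring 13 of the 25 fell, beside 2135 of all 23986 genes.

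No gene of the proximal tubule list passed the test. Of 30 proximal tubule genes 0 rose and 0 fell, with a median log2 fold change of -0.02, and 13 of the 30 lay at or under the background gauge. The mean of the list was 5.52, 5.42 and 5.58 in 21D organoids, against 5.55, 5.56 and 5.40 in 8D organoids, 5.20 to 5.39 in embryonic kidneys and 11.25 to 11.44 in adult kidneys. Of 30 oxidative phosphorylation genes, the mitochondrial machinery that adult tubules hold in plenty, 0 rose and 0 fell.

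The drug transporters that the study followed, Slc22a6, Slc22a8 and Slc22a2, take up organic anions and cations in proximal tubules. Slc22a6 had levels of 5.13, 4.97 and 5.06 in 21D organoids, against 5.04, 5.08 and 4.99 in 8D organoids, a log2 fold change of 0.02 with a 95% interval of -0.26 to 0.29, and averaged 12.09 in adult kidneys. Slc22a8 averaged 5.03 ± 0.10 in 21D organoids and 4.81 ± 0.19 in 8D organoids, and Slc22a2 3.66 ± 0.18 in 21D organoids and 4.08 ± 0.41 in 8D organoids, all under the background gauge (SD, n = 3 each). Of 21 drug transporter genes 1 rose (4.8%) and 2 fell (9.5%), beside 5.95% and 5.54% of all genes. The rising one was the efflux pump Abcc2 (5.11, 5.30 and 6.28 in 21D organoids, against 4.44, 4.70 and 4.76 in 8D organoids), lost without 8D replicate 1 or 21D replicate 3, and the falling ones were Abcg2 by 0.81, lost without 8D replicate 1, and Slc47a1 by 0.38, lost without any array except 8D replicate 3.

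Epithelial and progenitor markers divided into those well above background in both groups and those near it. Cdh1, the epithelial cadherin, averaged 9.89 ± 0.34 in 21D organoids and 10.18 ± 0.31 in 8D organoids, and the keratin Krt8 8.16 ± 0.33 in 21D organoids and 8.51 ± 0.15 in 8D organoids (SD, n = 3 each; limma adjusted p = 0.718 and 0.643). Wt1, of nephron progenitors and podocytes, had 6.68, 7.18 and 7.18 in 21D organoids and 6.71, 7.34 and 7.17 in 8D organoids, against a mean of 9.62 in embryonic kidneys. Six2, the defining factor of nephron progenitors, averaged 5.54 ± 0.40 in 21D organoids and 6.004 ± 0.28 in 8D organoids, against 9.89 in embryonic kidneys. Pax2 had 6.69, 5.60 and 5.53 in 21D organoids and 5.11, 5.50 and 4.93 in 8D organoids, groups that did not overlap but did not pass the test (limma adjusted p = 0.2), against 9.70 in embryonic kidneys. The tubule markers Slc34a1 and Cdh16 averaged 5.02 and 5.06 in 21D organoids and 5.26 and 5.10 in 8D organoids, close to the background gauge.

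**Figure D5:**
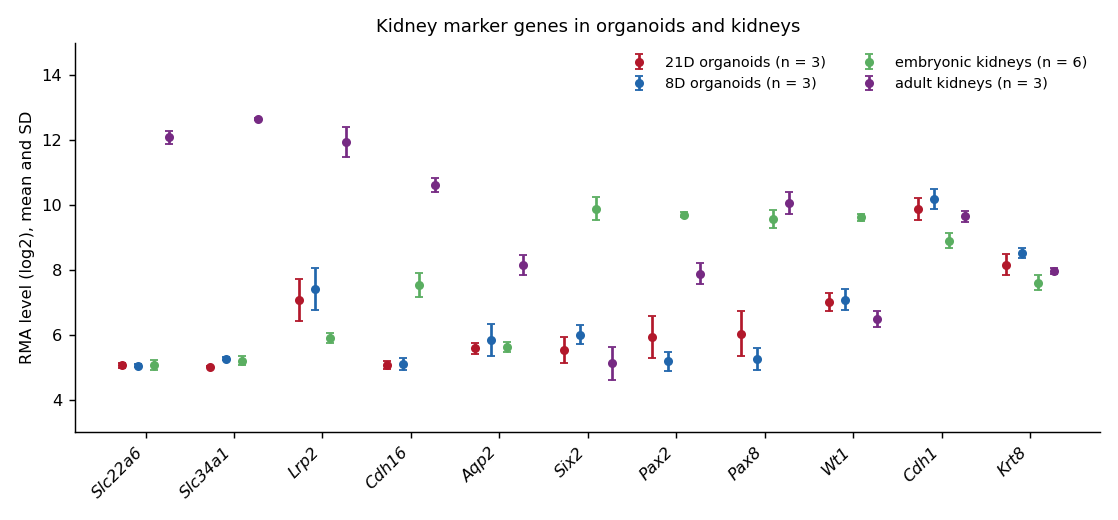
RMA level (log2, mean and SD) of 11 kidney marker genes in 21D organoids, 8D organoids, embryonic kidneys and adult kidneys. No gene shown passed the test between red and blue points, which lie near 5 for Slc22a6, Slc34a1 and Cdh16, and above the kidneys for Cdh1.

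A few genes of nephron formation did rise. Of 20 early nephron genes 4 rose, Pou3f3, Hes5, Dll1 and Lfng, of which Hes5, Dll1 and Lfng belong to the Notch pathway and all 4 are also active in neural progenitors. Dll1, a Notch ligand, had levels of 7.11, 6.91 and 6.80 in 21D organoids, against 5.70, 6.44 and 5.90 in 8D organoids. Of the 20, 1 rose without 8D replicate 1, and without 21D replicate 1 or 8D replicate 3 it was 2 each. On the podocyte list 6 of 20 rose, Ptpro, Plce1, Magi2, Nes, Vegfa and Dach2, and 1 fell, Nphs1, the slit diaphragm protein nephrin, with 6.12, 5.83 and 6.07 in 21D organoids and 6.996, 6.59 and 6.33 in 8D organoids. The call for Nphs1 was lost without 8D replicate 1, 8D replicate 2, 21D replicate 2 or 21D replicate 3. Ptpro, Magi2 and Nes are also expressed in neurons or their progenitors. The podocyte count that rose was 2 without 8D replicate 1, 3 without 21D replicate 2 and 4 without 21D replicate 1 or 8D replicate 3. In the metanephric mesenchyme list 1 of 21 rose (4.8%) and 2 fell (9.5%), beside 5.95% and 5.54% of all genes. Robo2, an axon guidance receptor that also limits ureteric budding, had levels of 9.30, 9.08 and 8.96 in 21D organoids, against 7.50, 8.21 and 7.73 in 8D organoids, and Sall1 and Sall4 fell. Both of these falls were lost without 8D replicate 1 or 21D replicate 2, and that of Sall1 also without 8D replicate 2, 8D replicate 3 or 21D replicate 3. Of 25 ureteric bud and collecting duct genes 1 rose (Aqp4) and 2 fell (Etv5 and Etv4), beside 5.95% and 5.54% of all genes. The call for Aqp4 was lost without 8D replicate 1, 8D replicate 3, 21D replicate 1 or 21D replicate 2, and that for Etv4 without 8D replicate 2, 8D replicate 3, 21D replicate 1 or 21D replicate 2. Aqp2, the water channel of principal cells, averaged 5.58 ± 0.17 in 21D organoids and 5.85 ± 0.49 in 8D organoids (SD, n = 3 each).

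Whole profiles were compared with both kidneys. The correlation of an array with the mean adult kidney profile was 0.8191, 0.8243 and 0.8326 in 21D organoids, against 0.8256, 0.8280 and 0.8249 in 8D organoids. The groups overlapped, and the difference of means was -0.0009 (exact two-sided permutation p = 0.8, where 3 arrays against 3 cannot go below 0.1). With the mean embryonic kidney profile the values were 0.9461, 0.9505 and 0.9559 in 21D organoids and 0.9525, 0.9550 and 0.9679 in 8D organoids, a difference of -0.0076 (exact two-sided permutation p = 0.3). After each gene was centred on its mean over all arrays the differences turned to 0.1793 for adult and 0.0992 for embryonic kidneys, with exact p of 0.1 and 0.6.

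Genes that separate the kidneys themselves, taken from the kidney arrays of the same fit, were counted as 2 sets. Of 1017 genes more than 4-fold higher in adult than in embryonic kidneys, 89 rose (8.8%) and 36 fell (3.5%) in 21D organoids relative to 8D organoids, beside 5.95% and 5.54% of all genes, with a median log2 fold change of 0.03. Of 946 genes more than 4-fold lower in adult kidneys, 101 rose (10.7%) and 253 fell (26.7%), with a median of -0.14. That set holds all 29 measured mitosis genes and 25 of the 30 DNA replication genes. Without 8D replicate 1, 52 rose and 5 fell in the adult-high set and 45 rose and 156 fell in the adult-low set. Without 21D replicate 2, 58 rose and 13 fell in the adult-high set and 62 rose and 156 fell in the adult-low set. After median centring 80 of the adult-high set rose and 69 fell, and 90 of the adult-low set rose and 293 fell. With that centring 1201 of all 23986 genes rose and 2135 fell.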

How the data were processed

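RNA of whole organoids, cells and kidneys was hybridised to Affymetrix Mouse Gene 2.0 ST arrays. The authors deposited log2 expression values after robust multi-array averaging (RMA), 1 row per gene symbol, with limma also named in their processing notes. How probe sets were joined into symbols is not given in the sources used here. The deposited values were not renormalized. A linear model with 10 group terms and a batch term was fitted to all 30 arrays (19 residual degrees of freedom) with limma 3.58.1 in R 4.3.3, the 21D minus 8D contrast was tested with moderated statistics, and p-values were adjusted by Benjamini-Hochberg over 23986 genes. Similarities used exact permutation tests in scipy 1.17.1 with numpy 2.4.6 under Python 3.11.15, and plots matplotlib 3.10.9. The fitting code was tested on simulated data.

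Named genes were the 15 largest called changes in each direction without overlap between groups (predicted genes, small RNAs and receptors left out), up to 4 members of each of 41 gene lists, and genes the study followed in organoids. MicroRNAs, symbol families and some further genes were added after their values were seen, and the members and lists were chosen with earlier results of these data known. Alternatives covered the samples fitted, the batch term, array weights, normalization, a filter on dim genes, the prior, a fold threshold, a trend on culture day and leaving out each array. Replicate numbers were not used to pair the samples, apart from an alternative with the number as a block. The number of arrays limits the precision.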

Additional observations from a re-analysis of the deposited data

How the results depend on the processing

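With the 9 organoid arrays fitted alone, 785 genes rose and 584 fell in 21D against 8D organoids, and with the 6 compared arrays alone it was 422 and 197. Tested against a log2 fold change of 0.5, 219 rose and 4 fell, and a trend on the culture day gave 659 and 576. Median centring gave 2135 that fell. Leaving out 1 array gave 695 to 1344 that rose and 477 to 1250 that fell, with 695 and 477 without 8D replicate 1 and 904 and 534 without 21D replicate 2. With the replicate number as a block in the 6 arrays, 4 rose and 0 fell by limma at 4269 genes with an unadjusted p under 0.05, and in all arrays with the block it was 1444 and 1303. The deviations of same-numbered 21D and 8D arrays correlated at 0.059, -0.147 and -0.094, and those of differently numbered arrays at -0.226 to 0.312. Whether arrays with different numbers share a culture was not tested. The other settings (batch 2 alone, no batch term, array weights, dim filter, quantile normalization, trended prior) kept both counts within 1.5 times. Of 188 named called genes (177 after the dim filter) none changed direction under these settings, the trend on culture day not compared, while 184 lost the call with the block in the 6 arrays, 140 with the fold threshold, 108 in the 6 arrays alone and 80 without 8D replicate 1. The causes were not tested.

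The difference in similarity to adult kidneys turned to 0.1793 with centred genes and ran between -0.004512 and 0.002237 without 1 array, and that to embryonic kidneys turned to 0.09922 and ran between -0.01059 and -0.002915. Uncalled genes near 0 changed sign: Slc22a6 was -0.06 with median centring and -0.024 to 0.057 without 1 array (-0.007 without 8D replicate 3), Wt1 was 0.001 with array weights and -0.242 to 0.105 without 1 array (0.072 without 8D replicate 2), Col4a1 was -0.074 with median centring and -0.215 to 0.264 without 1 array, and Lama1 was -0.806 to 0.04 without 1 array.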

Other observations

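Further gene lists had few calls, beside 5.95% of all genes that rose and 5.54% that fell. Among fatty acid oxidation genes 3 of 25 rose and 0 fell, and Ppargc1a, a regulator of mitochondrial number, rose by 1.73 on the log2 scale. Without 8D replicate 1, 2 of these rose. Of 39 Hox genes 1 rose, Hoxb5 by 1.42, and 2 fell, among them Hoxd1 by 0.60. No Hox gene rose without 21D replicate 1, 21D replicate 2, 8D replicate 1 or 8D replicate 3, and the count that fell ran between 0 and 3 without single arrays, with 0 without 21D replicate 1 or 8D replicate 3. Of 33 interferon response genes 1 rose, Ifi27, and 0 did after median centring or without 21D replicate 2, 21D replicate 3 or 8D replicate 1. Of 22 acute phase and complement genes 1 rose, Serpina3n by 2.23. Of 20 adipocyte genes 0 rose and 3 fell, Adipoq by 1.15, Scd1 by 1.08 and Cfd by 0.94. The count that fell was 1 without 21D replicate 1 or 21D replicate 2 and 0 without 8D replicate 3.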
